A study of Arabidopsis thaliana with 6 samples.

Results

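The epidermis and the columella root cap, grouped here as the soil-facing or outer layers of the root meristem, were compared with the inner layers, the cortex, the endodermis and the stele. The outer side held 2 libraries and the inner side 4, which were all 6 libraries of the series. A gene was counted as higher on a side when its lowest library there exceeded its highest library on the other side. Among 19671 genes that reached 1 FPKM (fragments per kilobase of transcript scaled to mapped fragments) in at least 1 library, 2333 (11.9%) were higher in both outer libraries than in every inner library. In the other direction, 2643 genes (13.4%) were higher in all inner libraries than in either outer library. Over all 33554 loci listed, whether or not they reached 1 FPKM, these numbers were 3067 (9.14%) and 2917 (8.69%).

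All libraries were poly(A) RNA from cells of roots of 6-day-old Arabidopsis thaliana seedlings, grown on agar with sucrose in long days and sorted for green fluorescent protein (GFP). Each library came from a different reporter line. Epidermis was sorted with ProWER:GFP, cortex with ProAT1G09750:GFP, stele (the central vascular cylinder) with ProWOL:GFP, endodermis with 2 ProSCR:GFP lines called line 1 and line 2, and the enhancer trap line PET111 marked the columella root cap. A library therefore holds the cells in which its reporter is active, and the WER promoter is known to be active in the lateral root cap as well as in the epidermis. No cell type other than endodermis had a second library, so each side is a set of different cell types, not a set of replicates. In sums over sorted cells, more expressing cells and more RNA per cell cannot be told apart.

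The epidermis takes up water and mineral nutrients and meets soil microbes, and the root cap around the tip secretes, senses gravity and sheds its cells as the root grows. Root cap identity and cell release depend on the NAC transcription factors SMB, BRN1, BRN2 and FEZ, and SMB activates a cell death programme in the lateral root cap. The inner ground tissue is patterned by the GRAS factors SHR and SCR, and the endodermis seals the stele with the Casparian strip.

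The markers of epidermis, cortex, endodermis, stele and root cap each had their highest summed FPKM in a library of that cell type. For the 2 cortex markers this rested on AED3 (AT1G09750), at 43.0 FPKM in cortex, whose promoter drove the cortex reporter. The other, CO2, was at 2.39 FPKM in cortex and 6.97 in endodermis line 2. WER, SCR and WOL, whose promoters drove other reporters, are also among the markers. The 5 epidermis markers summed to 365 FPKM in epidermis, 10.8 in columella root cap and 4.63 to 33.2 in the inner libraries. The 4 endodermis markers summed to 3310 FPKM in endodermis line 1 and 349 in line 2, against 11.3 to 49.1 elsewhere. The 4 root cap markers summed to 284 FPKM in columella root cap and 124 in epidermis, and to 0.553 to 7.35 in the inner libraries. The epidermis library thus carried root cap transcripts. The 6 xylem markers summed to 810 FPKM in columella root cap, 263 in stele and 13.6 in epidermis, so the columella root cap library also carried xylem transcripts. The 3 phloem markers summed to 38.7 FPKM in endodermis line 1, 21.0 in stele and 17.7 in columella root cap, and SUC2, a phloem sucrose transporter gene, was at 32.2 FPKM in endodermis line 1 and 1.65 in stele. No marker of these lists was at 0 in any library. Summed FPKM lay between 576322 and 642028, and the number of loci at 1 FPKM or more between 15999 and 17096. The part of these mixtures in the differences below was not tested, except where a value without a library is given.

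Most non-overlapping genes were separated by little. The gap between the sides is the difference on the log2(FPKM + 1) scale between the lowest library of the higher side and the highest library of the lower side. Its median was 0.46 over the 2333 genes higher outside and 0.21 over the 2643 genes higher inside, and it was under 0.5 for 1234 (52.9%) and 2086 (78.9%) of them. A rule of size that asked for a gap of at least 1 and at least 5 FPKM in every library of the higher side left 482 genes (2.45%) higher outside and 122 genes (0.62%) higher inside. Gaps of at least 2 were seen for 204 of the former and 16 of the latter, and gaps of at least 4 for 17 and 0.

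**Figure D1:**
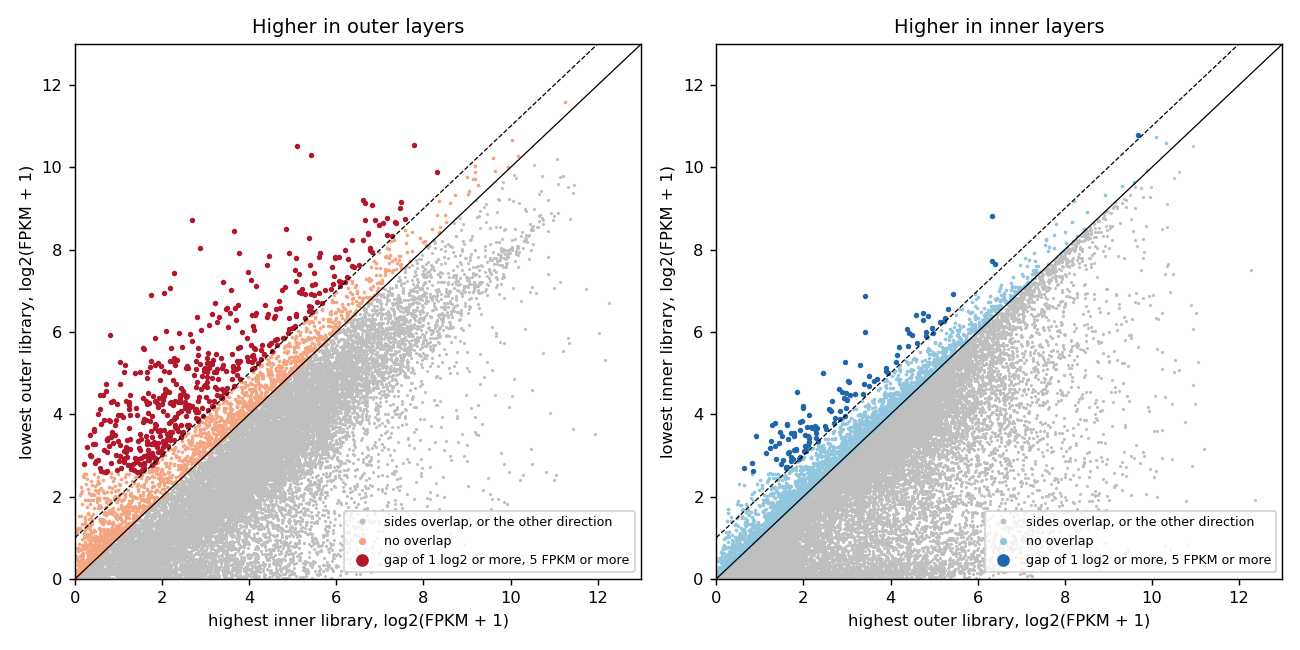
Lowest library of one side against highest library of the other, in log2(FPKM + 1), for the 19671 measured genes, with genes higher in outer layers on the left and genes higher in inner layers on the right. Points above the solid line do not overlap between the sides, the dashed line is a gap of 1, and dark points are the 482 and 122 genes that also have 5 FPKM or more throughout the higher side.

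The numbers rest on single libraries. Without the epidermis library, 5497 genes were higher outside and 4742 inside, without the columella root cap library 4211 and 7590, and without endodermis line 1 3716 and 6086. The rule of size then gave 1595 and 436, 1381 and 407, and 1094 and 587 genes in the same order, and 252 genes higher inside without the stele library. A gene that does not overlap cannot come to overlap when a library is left out, so these counts can only grow. After division by size factors the order turned, with 2848 genes higher outside and 2209 inside, and rescaling every library to the same sum (TPM) gave 2577 and 2154. The median outer minus inner difference over all measured genes was -0.20 on the log2 scale as reported and -0.05 with size factors, and differences below are read relative to this shift. As reported, 11452 of the 19671 measured genes had a lower outer mean, and counts of lower means below are read against this share. List counts below from all 6 libraries as reported are read against the 11.9% of measured genes higher outside and the 13.4% higher inside. List counts without a library or with another scaling are read against the counts of all 19671 measured genes in that setting, given here. Without the stele library these were 2578 outside and 3262 inside.

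limma, fitted to all measured genes with the side as the only term, called 180 genes (0.915%) higher in the outer layers and 15 (0.0763%) higher in the inner layers. A call needed an adjusted p under 0.05 (Benjamini-Hochberg) and a fitted difference of at least 1 on the log2 scale. Its error term contains the differences between cell types within a side. Of the 482 and 122 genes of the rule of size, 163 and 15 were called. limma called no gene in either direction with a pseudocount of 0.1, with the endodermis lines averaged, without cortex or without endodermis line 2, while 3056, 3688, 2117 and 1759 genes had an unadjusted p under 0.05 in these fits. Its adjusted p-values below are those of the fit as reported. In that fit 2888 of the 19671 measured genes had an unadjusted limma p under 0.05, and list counts of such genes below are read against this share. For a single gene, an exact permutation over the 15 splits of 2 against 4 libraries cannot give a two-sided p below 0.133.

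The genes with the largest gaps among the 482 included 4 annotated as late embryogenesis abundant (LEA) protein-like, all at high levels in both outer libraries. AT3G19430, the first of these, stood at 424 FPKM in epidermis and 665 in columella root cap. Its inner values were 3.21 in cortex, 5.45 and 0.681 in endodermis lines 1 and 2, and 0.496 in stele. The sides were separated by a gap of 6.04 and a fitted difference of 7.53 ± 0.67 (SE) on the log2(FPKM + 1) scale (limma adjusted p = 0.0179). AT5G54370, of the same family, reached 1463 FPKM in epidermis and 5288 in columella root cap, against 24.3, 33.0, 5.01 and 2.75 in cortex, endodermis lines 1 and 2 and stele. The related AT4G27400 was at 173 and 447 FPKM outside and at 2.15, 3.85, 0.452 and 0.168 inside, in the same order, and AT5G60530 at 429 and 261 outside and 6.35, 5.36, 1.38 and 0.622 inside. Endodermis line 2 and stele were the lowest libraries for each of the 4, and columella root cap was the higher outer library except for AT5G60530.

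Other genes among the 15 largest gaps encode a wall enzyme, a peroxidase and lectins. PE11, a pectinesterase that removes methyl groups from pectin, was at 59.5 FPKM in epidermis and 132 in columella root cap, and at 0.413, 0.731, 0.165 and 0.0986 in the inner libraries. The peroxidase AT5G24070 was at 123 and 130.1 FPKM outside and at 3.15, 1.29, 0.619 and 0.166 inside. AT1G50060, of the family of pathogenesis-related protein 1, was at 351 and 1816 FPKM outside and 5.47, 11.6, 1.46 and 0.757 inside. The mannose-binding lectin AT1G52070 was at 1758 and 1270.2 FPKM outside and 41.5, 23.3, 5.94 and 2.69 inside. Each of these was called by limma, with adjusted p from 0.0179 to 0.0282. AT5G55110 (Stig1 family), AT1G16905 (curculin-like lectin), AT4G25310 (2-oxoglutarate-dependent oxygenase), AT1G15385 and AT4G33467 completed this group with BRN1 and NRT3.1, described below.

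**Figure D2:**
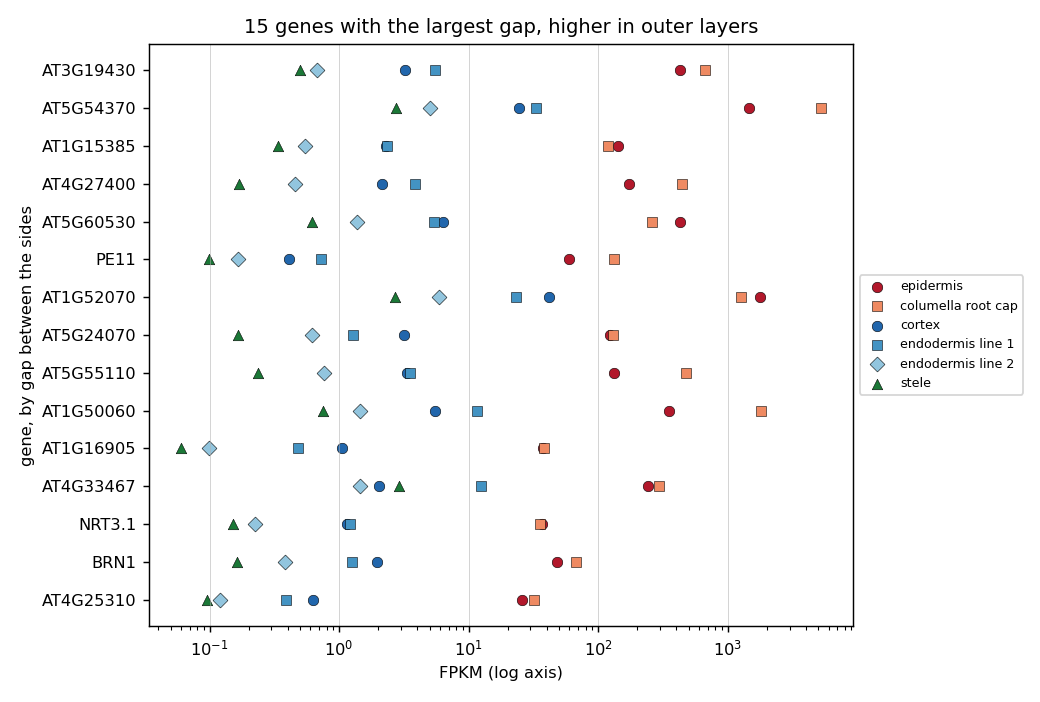
FPKM on a log axis in each of the 6 libraries for the 15 genes with the largest gap among the 482 genes higher in outer layers, ordered by gap. Red and orange points (epidermis, columella root cap) lie to the right of all blue and green points (inner libraries) for every gene, and stele is the lowest library for all of them except AT4G33467.

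The rule of size did not ask that the outer libraries be alike. Of the 482 genes, 279 (57.9%) were within 2-fold between epidermis and columella root cap, 134 were over 2-fold higher in columella root cap and 69 over 2-fold higher in epidermis. Their median FPKM was 34.2 in epidermis and 41.4 in columella root cap, against 3.19 in cortex, 3.63 in endodermis line 1, 1.58 in endodermis line 2 and 1.01 in stele. The highest inner library was endodermis line 1 for 247 genes (51.2%) and cortex for 197 (40.9%), and the lowest was stele for 318 (66.0%). Among the most equal outer pairs were the glutathione S-transferase gene GSTF6, at 9.46 FPKM in both, and BGLU25, a beta-glucosidase gene, at 107 in both. Just inside the gap of 1 lay AT5G02180 (amino acid transporter family, gap 1.01) and the protein kinase gene AT3G44610 (gap 1.01), and just outside it AT5G42930 (gap 0.998) and UGT73B3 (gap 0.999).

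**Figure D3:**
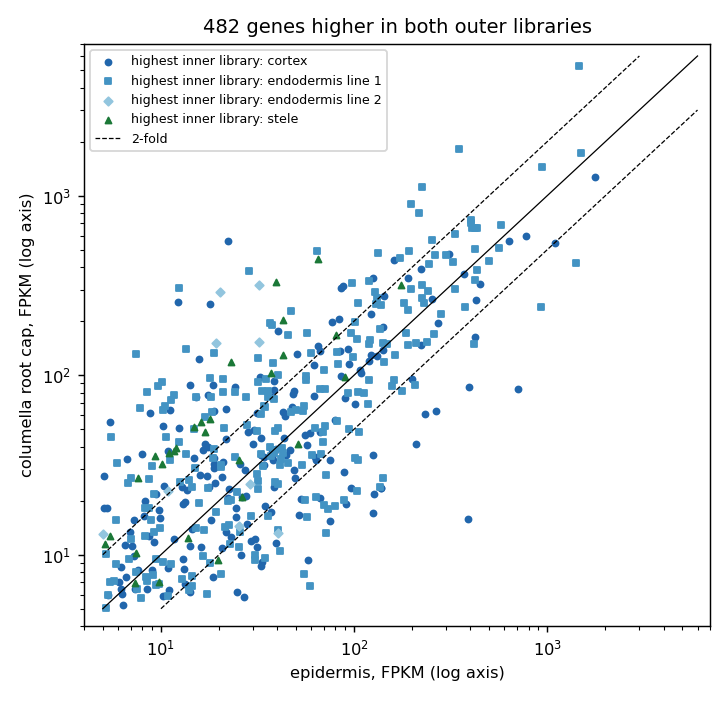
FPKM in columella root cap against FPKM in epidermis, both on log axes, for the 482 genes of the rule of size that were higher in outer layers, with the symbol giving the inner library with the highest value. The solid line is equality and the dashed lines are 2-fold, between which 279 genes lie.

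Of 11 genes for root cap NAC factors and developmental cell death, 10 (90.9%) were higher in both outer libraries than in every inner library and none was lower. Their median outer minus inner difference was 4.14, against -0.20 over all measured genes. BRN1, a NAC factor of root cap maturation, was at 47.8 FPKM in epidermis and 66.8 in columella root cap. Its inner values were 1.94, 1.26, 0.383 and 0.162 in cortex, endodermis lines 1 and 2 and stele (difference 4.99 ± 0.53 SE, limma adjusted p = 0.0179). Its paralog BRN2 was at 34.4 and 31.6 FPKM outside, and at 1.17, 0.851, 0.373 and 0.0736 inside. SMB was at 32.4 and 98.2 FPKM outside and 3.09, 2.27, 1.03 and 0.13 inside. FEZ, which promotes divisions of root cap stem cells, was at 9.61 and 87.2 FPKM outside and at most 1.40 inside. SMB and FEZ were thus lower in epidermis than in columella root cap, while BRN2 was nearly equal in the outer libraries.

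Most of the genes of this list that are associated with developmental cell death were also higher in both outer libraries. MC9, a metacaspase gene, was at 62.8 and 35.2 FPKM outside and at 2.93, 1.78, 0.452 and 1.59 in cortex, endodermis lines 1 and 2 and stele. RNS3, a ribonuclease gene, was at 46.6 and 38.2 FPKM outside and at most 3.50 inside. BFN1, encoding a nuclease, was at 17.7 and 23.9 FPKM outside and at most 1.35 inside. SCPL48, a carboxypeptidase gene, was at 81.8 and 234.6 FPKM outside but at 44.7 in endodermis line 1. PASPA3, an aspartic protease gene, was the exception, at 34.2 and 19.0 FPKM outside and 24.0 in stele. limma called 6 of the 11 genes, among them MC9, RNS3 and BFN1, and without the stele or the columella root cap library all 11 did not overlap.

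The bases upstream of BRN2 are shown as those of a root cap factor that was nearly equal in the outer libraries. The window holds the 250 bases before the annotated start in RefSeq's TAIR10.1 annotation, 5′ to 3′ on the strand of the gene, which is the minus strand of chromosome 4. Capitals mark the letters TTGAC (W-box core, bound by WRKY factors), GCCGCC (GCC-box) and TGTCTC (auxin response element) on either strand.
BRN2: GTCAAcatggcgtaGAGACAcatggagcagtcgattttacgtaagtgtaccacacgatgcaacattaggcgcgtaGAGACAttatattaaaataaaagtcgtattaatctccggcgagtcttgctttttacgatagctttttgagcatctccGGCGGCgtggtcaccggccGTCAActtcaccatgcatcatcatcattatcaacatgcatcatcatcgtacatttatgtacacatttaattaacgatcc
The GCC-box began 98 bases before the start and the nearest W-box core 79 bases before it. A GCC-box was found in 2.09% of the windows of the outer genes and in 1.97% of those of all measured genes. A match is a description of letters, and binding was not measured.

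The windows of AT5G54370, on the plus strand of chromosome 5, and AT4G27400, on the plus strand of chromosome 4, are shown because these LEA-like genes share a match to a motif, a choice made after all 4 windows were searched. The windows of AT3G19430 and AT5G60530, the other LEA-like genes with large gaps, held no match to any motif searched. Capitals mark W-box cores.
AT5G54370: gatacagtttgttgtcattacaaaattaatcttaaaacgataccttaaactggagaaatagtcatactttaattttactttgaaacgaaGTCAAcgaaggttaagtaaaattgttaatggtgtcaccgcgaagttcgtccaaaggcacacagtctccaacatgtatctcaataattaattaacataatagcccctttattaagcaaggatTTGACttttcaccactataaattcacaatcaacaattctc
AT4G27400: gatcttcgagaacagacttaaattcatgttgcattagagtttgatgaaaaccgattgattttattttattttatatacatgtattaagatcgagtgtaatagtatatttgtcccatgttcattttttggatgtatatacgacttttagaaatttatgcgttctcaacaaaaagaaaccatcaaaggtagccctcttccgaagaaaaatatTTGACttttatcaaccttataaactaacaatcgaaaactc
Both windows have a W-box core that begins 40 bases before the start, within a common run of 11 bases, atTTGACtttt, at the same distance. AT5G54370 has a further one that begins 161 bases before the start.

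In all, 7 motifs were counted on both strands in the windows of 479 of the 482 outer genes, 121 of the 122 inner genes and 18940 of the measured genes. No motif contains another, but neighbouring matches can share bases. The W-box core TTGAC was in 56.8% of the outer, 32.2% of the inner and 45.1% of all windows. The G-box CACGTG was in 10.9%, 7.44% and 7.44%, and the auxin response element TGTCTC in 9.39%, 17.4% and 10.7%. The site II element TGGGCC was in 3.55%, 3.31% and 16.8%, and was thus less frequent in both sets than among all genes. The telo-box AAACCCTA was in 1.25%, 3.31% and 3.61%, and the E2F site TTTCCCGC in 0.418%, 0% and 0.649%. Windows of neighbouring and duplicated genes are not independent, and no test was made of these shares.

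Some of the 482 genes lay beside each other. Of the 479 that could be placed, 75 (15.7%) had another of them as the next protein-coding gene, in 40 pairs, whereas 3.81% of all measured genes had one of the 482 beside them. In 9 of the 40 pairs the annotated products were identical, among them the lectin genes AT1G52050, AT1G52060 and AT1G52070 and the chitinase genes AT2G43590, AT2G43600 and AT2G43610. Reads of close copies may have been shared between them. The 482 genes had a median coding length of 1080 bases, against 1215 for the 122 inner genes and 1149 for all measured genes, and 26.1%, 15.7% and 19.5% had a single coding exon. Of the inner genes, 4 (3.31%) had another as neighbour, against 0.945% of all measured genes.

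Of 27 genes for uptake of minerals and amino acids from soil, 19 were measured, 9 of these (47.4%) were higher in both outer libraries and none in all inner libraries. Their median difference was 2.01. NRT3.1, the partner protein of high-affinity nitrate transporters, was at 37.1 FPKM in epidermis and 35.6 in columella root cap, and at 1.15, 1.21, 0.222 and 0.151 in cortex, endodermis lines 1 and 2 and stele (limma adjusted p = 0.0179). FRO2, the ferric chelate reductase, was at 8.74 and 61.2 FPKM outside and at 0.322, 0.248, 0.0794 and 0.0163 inside. SULTR1;2, a sulfate transporter, was at 91.3 and 19.0 FPKM outside and at most 3.89 inside. NRT3.1 and FRO2 were the genes of this group called by limma.

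Several transporters were several times higher in epidermis than in columella root cap. NRT1.1, the nitrate transporter and sensor, was at 75.3 and 15.3 FPKM, with at most 4.11 inside. LHT1, which imports amino acids, was at 127 and 21.8 FPKM, with at most 10.04 inside. AMT1;3, an ammonium transporter, was at 14.9 and 2.75 FPKM, with at most 0.658 inside. AKT1, the inward potassium channel, was the reverse, at 23.1 and 52.4 FPKM with 15.8 in stele, and BOR2 and NIP5;1, which carry boron, were at 43.9 and 36.8 and at 75.2 and 34.9 FPKM. The phosphate transporters PHT1;1 and PHT1;4 did not pass, since they were at 19.5 and 26.1 FPKM in epidermis but at 0.153 and 1.42 in columella root cap, below some inner values. Without the columella root cap library 16 of the 19 were higher outside, and without epidermis 2 were higher inside.

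PDR9, an ABC transporter that exports coumarins and other phenolics, was at 370.2 FPKM in epidermis and 364 in columella root cap, against 27.9, 14.5, 7.37 and 1.31 in cortex, endodermis lines 1 and 2 and stele (limma adjusted p = 0.0471). It was the only one of 10 measured genes of coumarin and phenylpropanoid exudation that was higher outside. Several enzymes of the pathway upstream stood highest in endodermis line 1. PAL1, the entry enzyme, was at 469 FPKM there and at 10.4 and 22.1 in the outer libraries. 4CL2, a CoA ligase gene, was higher in all inner libraries, at 36.2, 131, 21.0 and 5.48 FPKM against 4.05 and 3.52. The median difference of the group was -1.23. Up to 5 of the 10 were higher inside when a library was left out, in this case stele. In that setting 3262 of all 19671 measured genes were higher inside.

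Pattern recognition and early immune signalling had 7 of 21 measured genes (33.3%) higher in both outer libraries and none in all inner ones, with a median difference of 0.80. CERK1, the chitin receptor kinase, was at 34.03 FPKM in epidermis and 18.7 in columella root cap, and at 5.64, 13.7, 7.43 and 4.55 in cortex, endodermis lines 1 and 2 and stele. BIK1, a cytoplasmic kinase downstream of immune receptors, was at 5.94 and 32.5 FPKM outside and at 1.53, 2.01, 1.01 and 0.371 inside. MPK3, a mitogen-activated protein kinase, was at 74.2 and 356 FPKM outside and 29.8, 42.3, 25.2 and 11.5 inside. SOBIR1, MIK2, PBL1 and LORE, all encoding kinases, were the others. The flagellin receptor FLS2 was below 1 FPKM in every library, and the NADPH oxidase RBOHD was highest in endodermis line 1, at 19.3 FPKM against 2.38 and 2.23 outside. limma called none of the 21, and 9 had an unadjusted p under 0.05. Without endodermis line 1, 12 did not overlap, and without epidermis 11.

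WRKY factors, which bind the W-box in defence and stress responses, had 18 of 51 measured genes (35.3%) higher outside and none higher inside, with a median difference of 1.64. WRKY31 was at 10.9 FPKM in epidermis and 5.88 in columella root cap, and between 0.0287 and 0.157 inside. WRKY14 was at 40.2 and 13.8 FPKM outside and at most 1.99 inside. WRKY6 was at 141 and 150.4 FPKM outside, but at 42.3 in endodermis line 1. WRKY23 was at 11.2 and 72.3 FPKM outside and at most 3.14 inside. limma called 3 of the 51. Without endodermis line 1, and likewise without columella root cap, 33 were higher outside, and up to 6 were higher inside without columella root cap. Of 62 NAC factors, 20 (32.3%) were higher outside and 2 inside, including the root cap factors above and NAC094, at 8.47 and 80.4 FPKM outside and at most 1.05 inside. Without epidermis 30 of the 62 were higher outside, as were 5497 of all 19671 measured genes. Without columella root cap 14 of the 62 were higher inside, as were 7590 of all measured genes.

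Families of enzymes that modify and conjugate small molecules each counted more genes higher outside than inside. Cytochrome P450 genes had 36 of 125 (28.8%) higher outside and 9 (7.2%) inside, and glutathione S-transferases 13 of 46 (28.3%) and 2 (4.35%). UDP-glycosyltransferases had 20 of 96 (20.8%) and 8 (8.33%). This last set was matched by annotated name and also holds enzymes of other roles, such as the starch synthase gene AT1G32900. The shares of all measured genes were 11.9% and 13.4%. The median differences were 0.57, 1.02 and 0.25. GSTU25 was at 1498 FPKM in epidermis and 1731 in columella root cap, and at 40.6, 218, 13.8 and 12.9 in cortex, endodermis lines 1 and 2 and stele. CYP87A2 was at 223 and 148 FPKM outside and at most 9.54 inside (limma adjusted p = 0.026). UGT73B5 was at 109 and 103 FPKM outside and at most 8.33 inside, and UGT73B4, its neighbour on the chromosome, at 222 and 393 outside and at most 32.7 inside. Without columella root cap 64 P450, 20 glutathione S-transferase and 37 glycosyltransferase genes did not overlap in this direction, and 23 glutathione S-transferase genes did not without endodermis line 1 and 20 without epidermis. The counts higher inside grew to at most 18, 7 and 20, each without columella root cap.

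Indole glucosinolate and camalexin genes differed among the steps of the pathway. Of 15 measured genes, 3 were higher outside and none inside, and the median difference was -0.64. PEN2, a myrosinase that activates indole glucosinolates against fungi, was at 88.6 FPKM in epidermis and 28.8 in columella root cap, and at 7.21, 6.81, 2.29 and 0.236 in the inner libraries. PEN3, the ABC transporter that acts with PEN2, was at 254 and 568 FPKM outside and 16.8, 108, 7.30 and 3.87 inside. The biosynthetic enzyme gene CYP83B1 was at 5.24 and 28.6 FPKM outside and at 84.9 in endodermis line 2, and MYB34, an activator of the pathway, at 3.62 and 7.81 outside and 85.4 in endodermis line 2. None of the 15 was called by limma, and 4 had an unadjusted p under 0.05. When endodermis line 1 was left out 5 were higher outside, and 6 were higher inside without stele and 4 without columella root cap.

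Cell separation and pectin breakdown had 4 of 11 measured genes (36.4%) higher outside and 3 (27.3%) inside, with a median of 1.02. The shares of all measured genes were 11.9% and 13.4%. CEL5, a cellulase gene known from root cap cells, was at 42.9 FPKM in epidermis and 204 in columella root cap, and at 4.98, 3.95, 5.41 and 8.47 in cortex, endodermis lines 1 and 2 and stele (limma adjusted p = 0.0442). The pectate lyase-like gene AT4G13210 was at 4.39 and 25.5 FPKM outside and at most 0.209 inside. PME3, a pectin methylesterase gene, was the reverse, at 3.36 and 6.70 FPKM outside and 71.6, 131, 87.9 and 14.6 inside. BXL4, a xylosidase gene, was at 1.34 and 1.71 FPKM outside and 8.91, 85.6, 54.6 and 37.1 inside. The median turned to -0.095 on the log2 scale without the epidermis library, and 6 were higher outside without columella root cap. Of 48 class III peroxidases, 3 (6.25%) were higher in each direction, below the 11.9% and 13.4% of all measured genes. Of these 48, 20 were higher outside without columella root cap and 12 inside without stele.

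Auxin transport had 3 of 15 genes higher outside and 2 (13.3%) inside, where 11.9% and 13.4% of all measured genes were, so the inner share was that of all genes and the outer one rests on 3 genes. Its median of 1.00 turned to -0.45 without columella root cap. AUX1, the main auxin importer of the root tip, was at 93.5 FPKM in epidermis and 162 in columella root cap, against 48.3, 72.6, 18.8 and 67.5 inside. The kinase gene WAG1, which acts on PIN auxin exporters, was at 70.1 and 18.8 FPKM outside and 1.90, 2.09, 0.81 and 0.136 inside (called by limma), and its relative PINOID at 27.3 and 8.36 outside and at most 4.56 inside. The importer LAX3 was at 1.90 and 20.09 FPKM outside and 49.9, 76.0, 36.6 and 286 inside. The exporter gene PIN4 overlapped between the sides, at 547 FPKM in columella root cap and 18.9 in epidermis. Without epidermis 7 of the 15 were higher outside, without endodermis line 1 5, and without columella root cap 6 outside and 6 inside. Over all 19671 measured genes these numbers were 5497, 3716, 4211 and 7590.

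The genes with the largest gaps among the 122 of the inner side included regulators of ground tissue and growth. PDF2.5, encoding a small defensin-like protein, was at 0.79 FPKM in epidermis and 9.63 in columella root cap, and at 126, 125, 486 and 116 in cortex, endodermis lines 1 and 2 and stele. The sides were separated by a gap of 3.46, and the fitted difference was -5.31 ± 0.84 (SE, limma adjusted p = 0.0416). HSFB4, a heat shock type factor known as SCHIZORIZA for its role in asymmetric divisions of the ground tissue, was at 0.392 and 2.59 FPKM outside and 74.2, 22.4, 86.8 and 28.6 inside. AN3, a growth coactivator that pairs with growth-regulating factors, was at 0.641 and 4.49 FPKM outside and 69.9, 31.2, 99.2 and 71.3 inside. PMEPCRA, a pectin methylesterase gene, was at 4.96 and 9.63 FPKM outside and 246, 128, 168 and 62.5 inside. Each of these inner values exceeded both outer values, as the rule required, and limma, fitted to the same values, called all 4 genes.

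AT1G62480, annotated as a vacuolar calcium-binding protein-like protein, had the highest levels of the 15 largest inner gaps, at 27.9 and 79.8 FPKM outside and 450.3, 1081, 1027 and 502 inside. MIPS3, an inositol phosphate synthase gene, was at 0.539 and 1.56 FPKM outside and at 52.3, 21.0, 111 and 12.9 inside. GOX3, a glycolate oxidase gene, was at 0.966 and 1.37 FPKM outside and at 98.5, 19.9, 51.6 and 9.27 inside. MIPS3 and GOX3 were not called by limma (adjusted p = 0.0658 and 0.0917). Over the 122 genes the median FPKM was 2.82 in epidermis and 3.82 in columella root cap, against 27.6, 28.9, 40.8 and 28.6 in cortex, endodermis lines 1 and 2 and stele. The highest inner library was spread over endodermis line 2 for 38 genes, stele for 30, cortex for 28 and endodermis line 1 for 26, and columella root cap was the higher outer library for 86. Just inside the gap of 1 lay AT5G65520 and SVL1 (1.01 each), and just outside it CB5-B (0.993) and NRPB9B (0.996).

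**Figure D4:**
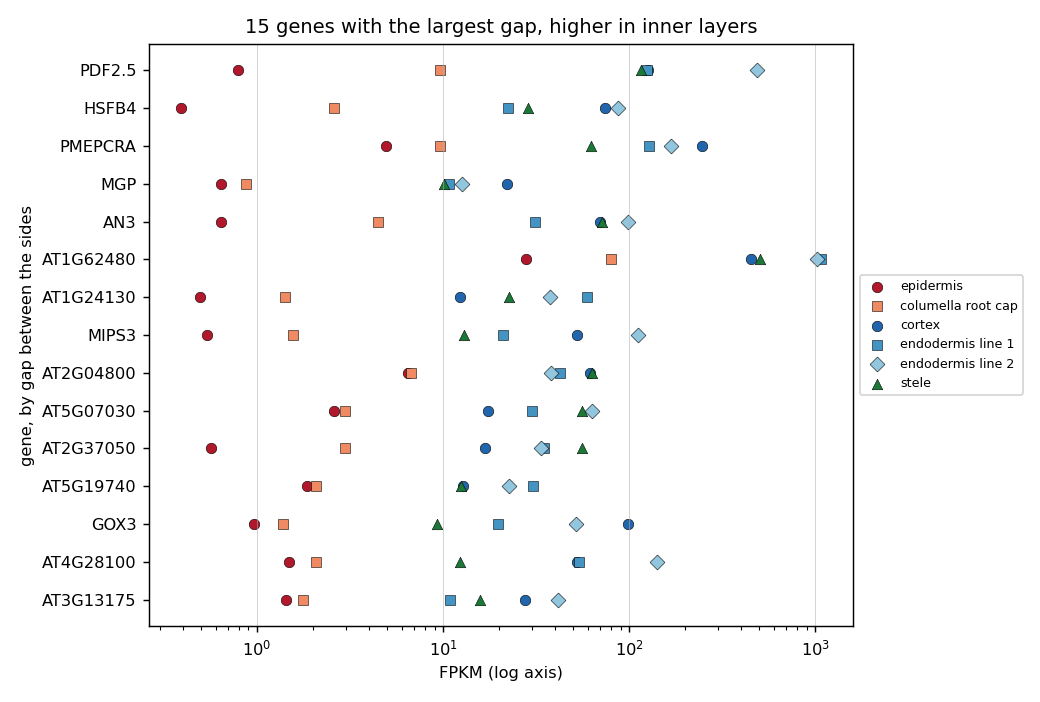
FPKM on a log axis in each of the 6 libraries for the 15 genes with the largest gap among the 122 genes higher in inner layers, ordered by gap. The blue and green points of the inner libraries lie to the right of both outer libraries for every gene, and columella root cap lies at or above epidermis.

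The upstream window of PDF2.5, on the plus strand of chromosome 5 in TAIR10.1, is shown as that of the largest inner gap. It holds a single match to the motifs searched, a W-box core that begins 37 bases before the start, in capitals.
PDF2.5: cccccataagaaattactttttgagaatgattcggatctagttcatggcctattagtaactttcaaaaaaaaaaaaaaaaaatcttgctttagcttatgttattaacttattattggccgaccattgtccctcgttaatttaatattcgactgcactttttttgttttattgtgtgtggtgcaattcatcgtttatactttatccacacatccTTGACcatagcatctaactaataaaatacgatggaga

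SCR, the endodermal GRAS factor and one of the markers, was higher in all inner libraries, at 1.99 FPKM in epidermis and 3.35 in columella root cap against 36.5, 59.7, 147 and 14.7 in cortex, endodermis lines 1 and 2 and stele. SHR, which is made in the stele and moves outward to activate SCR, was at 0.193 and 2.12 FPKM outside and at 7.27, 11.6, 16.7 and 98.8 inside. Over 8 genes of the SHR and SCR network, a list drawn up after these values were seen, 7 were higher inside and the median difference was -3.07. MGP, a zinc finger target of SHR and SCR, was at 0.641 and 0.871 FPKM outside and 22.1, 10.8, 12.6 and 10.13 inside (limma adjusted p = 0.0412). JKD, its relative, was at 1.47 and 2.12 FPKM outside and at 66.3, 36.3, 61.3 and 4.50 inside. SCL3, a GRAS factor of the endodermis, was at 0.857 and 2.76 FPKM outside and at 11.3, 28.7, 50.4 and 13.6 inside. BLJ was the exception, at 0.136 FPKM in stele. MGP was the gene of the list called by limma.

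Barrier genes of the endodermis did not mark the inner side as a whole. Of 12 measured suberin and Casparian strip genes 1 (8.33%) was higher in every inner library, against 13.4% of all measured genes. All 12 had a higher inner mean, as had 11452 of all 19671 measured genes, and the median was -2.36. CASP1, which scaffolds the Casparian strip membrane domain, was at 2045 FPKM in endodermis line 1 and 85.2 in line 2, but at 5.80 in cortex and 1.44 in stele against 8.66 and 4.29 outside. MYB36, the regulator of the CASP genes, was the gene that passed, at 3.87, 377, 70.5 and 2.03 FPKM inside and 1.497 and 0.807 outside. limma called none of the 12, and none had an unadjusted p under 0.05. Without stele 3 were higher inside, and without epidermis 2. Of 7 measured cutin genes 3 were higher inside, at levels of at most 1.56 FPKM.

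Most genes of cell division had lower outer than inner means, but not all separated the sides. All 16 genes for G2 and M phase had a lower outer mean, as had 11452 of all 19671 measured genes. Their median difference was -1.48. Of the 16, 10 (62.5%) were lower in both outer libraries than in every inner library, against 13.4% of all measured genes. CDKB2;1, the mitotic kinase gene, was at 9.41 FPKM in epidermis and 5.56 in columella root cap, and at 14.0, 12.5, 39.1 and 57.0 in cortex, endodermis lines 1 and 2 and stele. CYCB1;1, a mitotic cyclin gene, was at 5.36 and 2.83 FPKM outside and 7.87, 6.13, 21.4 and 27.1 inside. Endodermis line 1 was the lowest inner library for both. With size factors 1 of the 16 did not overlap, with TPM 8, and without epidermis or without endodermis line 1 15 did not. limma called none, and 3 of the 16 had an unadjusted p under 0.05, as had 2888 of all 19671 measured genes.

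Of 17 genes for S phase 4 (23.5%) were higher inside and none outside, against 13.4% and 11.9% of all measured genes, with a median of -1.28. The outer mean was lower for 16 of the 17, and for 11452 of all 19671 measured genes. The exception among the 17 was the cyclin gene CYCD3;1, at 11.6 and 7.15 FPKM outside and 23.1, 3.33, 5.09 and 1.43 inside. PCNA1, the sliding clamp of DNA replication, was at 16.2 and 9.36 FPKM outside and at 45.3, 21.8, 70.1 and 93.3 inside. MCM2, a helicase subunit gene, was at 5.93 and 9.47 FPKM outside and 18.5, 7.36, 26.7 and 45.5 inside, so that endodermis line 1 fell between the outer libraries. Leaving out endodermis line 1, 16 of the 17 were higher inside, 11 without columella root cap and 7 without epidermis, while TPM left 2. limma called none of the 17, and 3 had an unadjusted p under 0.05, as had 2888 of all 19671 measured genes. The meristem regulators PLT1, PLT2 and PLT3 had their highest value in columella root cap, at 79.6, 43.6 and 136 FPKM, and were at 7.15, 6.94 and 33.3 in epidermis. Of 10 such regulators, WOX5 was the gene higher inside, at 1.08 to 3.03 FPKM against 0.366 and 0.484. Without epidermis 4 of the 10 were higher inside and 3 outside.

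Most histone and ribosomal protein genes had lower outer than inner means, and most of them overlapped between the sides. Of 45 histone genes, 16 (35.6%) were higher inside and 1 outside, with a median of -1.07. Of 272 genes named as ribosomal proteins without an organelle label, 48 (17.65%) were higher inside and 4 outside, against 13.4% and 11.9% of all measured genes. The set was matched by annotated name. It also holds some organelle ribosomal proteins, such as AT1G35680, and related proteins, such as the elongation factor AT1G56070. A lower outer mean was seen for 261 of the 272, and for 11452 of all 19671 measured genes. The median of the 272 was -1.10. With size factors 6 histone genes (13.3%) and 24 ribosomal genes (8.82%) were higher inside, against 11.2% of all measured genes, and with TPM 14 and 31. Without endodermis line 1 these were 31 and 248, without epidermis 34 and 204, and without columella root cap 21 and 74. Endodermis line 1 therefore overlapped with the outer side for most ribosomal protein genes. The upstream window of 47.8% of the ribosomal genes held a site II element and that of 14.7% a telo-box, against 16.8% and 3.61% of all measured genes. limma called none of these genes. Its unadjusted p was under 0.05 for 32 of the 272 ribosomal and 18 of the 45 histone genes, and for 2888 of all 19671 measured genes. Close copies are frequent in both families, and how the authors' values treat shared reads is not given in the sources used here.

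DNA methylation genes did not separate the sides. In the RNA-directed pathway 1 of 18 measured genes was higher outside and 1 inside (5.56% each), with a median of -0.24. Over all measured genes these shares were 11.9% and 13.4%. CLSY2, a chromatin remodeller gene, was at 1.99 FPKM in columella root cap and 0.0519 in epidermis, and at most 0.0373 inside. Several others had their highest value in columella root cap. NRPD1, a subunit of the plant-specific RNA polymerase IV, stood at 14.1 FPKM there, 0.64 in epidermis and 0.21 to 0.753 inside, and CLSY1 was at 24.3, 0.523 and 0.63 to 2.82. Without epidermis 8 were higher outside and without columella root cap 13 were higher inside, with 4 inside without endodermis line 1. Of 9 measured genes of maintenance methylation, MET1 was higher inside, at 5.92 and 5.09 FPKM outside and 16.2, 6.42, 22.6 and 36.9 inside, and with size factors none was. Without endodermis line 1, 6 of the 9 were higher inside, and 3 without epidermis or without columella root cap. limma called none of the 18 or the 9, and 0 and 2 had an unadjusted p under 0.05.

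Stress genes, which can respond to the making of protoplasts before sorting, had a median difference of 1.31. Against 11.9% and 13.4% of all measured genes, 5 (25.0%) of these 20 were higher outside and 1 (5.0%) inside. Their summed FPKM was 3310 in epidermis, 3560 in columella root cap, 1290 in cortex, 3670 in endodermis line 1, 984 in endodermis line 2 and 624 in stele. Endodermis line 1 was thus as high as the outer libraries. WRKY33 was at 147 and 96.3 FPKM outside and 22.5, 70.2, 11.96 and 3.89 inside, and WRKY40 at 297 and 408 outside and 47.7, 342, 42.3 and 13.1 inside. LOX3, an enzyme gene of jasmonate synthesis, was at 19.2 and 118.7 FPKM outside and at most 15.4 inside. When endodermis line 1 was left out 16 of the 20 were higher outside, without epidermis 9 and without columella root cap 8. limma called none of the 20, and 9 had an unadjusted p under 0.05. The part of sample handling in the immune, WRKY and detoxification results was not tested.

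**Figure D5:**
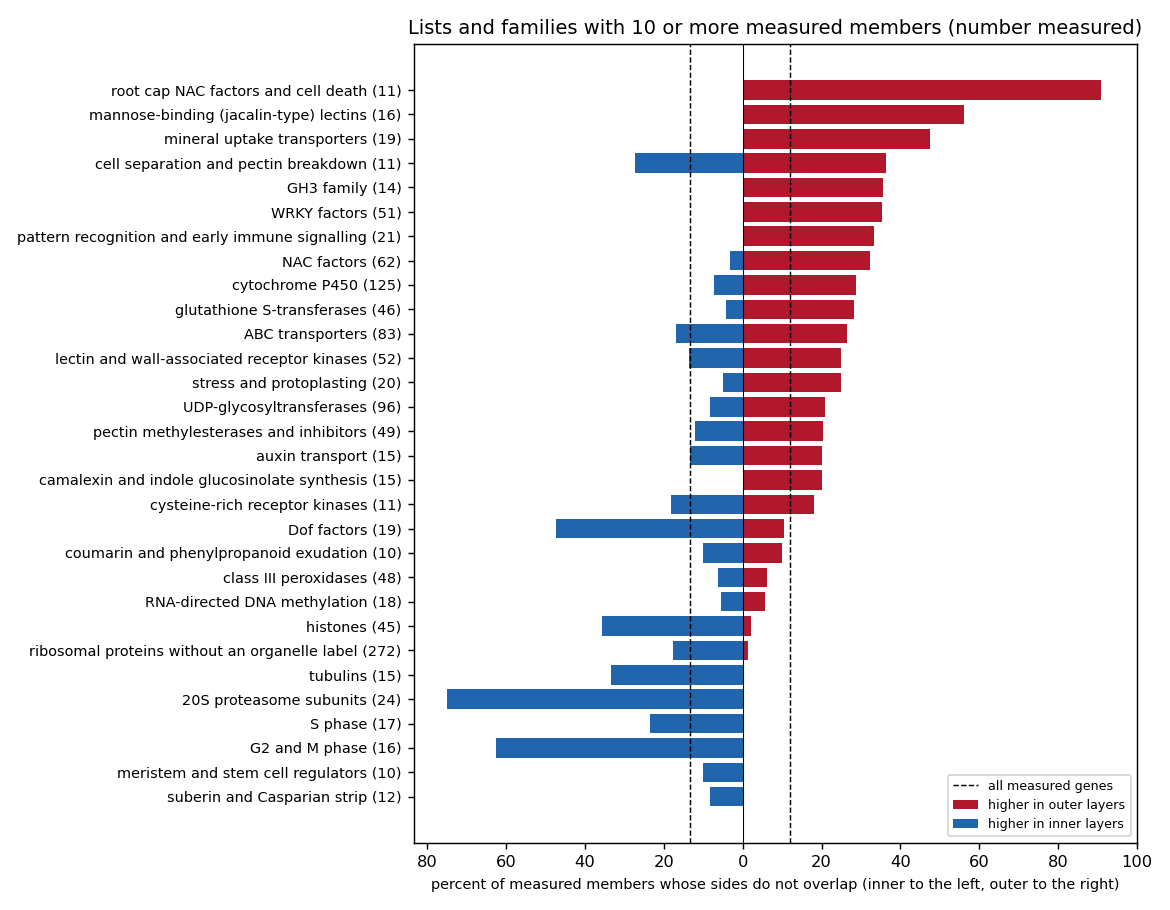
Percent of measured members that were higher in both outer libraries (red, to the right) or in all inner libraries (blue, to the left), for gene lists and families with 10 or more measured members, the number of which is in parentheses. Dashed lines are the 11.9% and 13.4% of all measured genes. The lectin, GH3, pectin methylesterase, 20S proteasome and Dof groups were chosen after their values were seen.

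Of the marker genes used to check the libraries, all 4 for the root cap were higher outside, and none for epidermis, cortex or xylem separated the sides. The epidermis marker WER was at 91.3 FPKM in epidermis and 6.97 in columella root cap, below the 12.8 of cortex. The root hair gene EXPA7 was at 196 FPKM in epidermis and 0.462 in columella root cap, below every inner library. The xylem protease gene XCP1 was at 317 FPKM in columella root cap, 98.7 in stele and 2.97 in epidermis. Without epidermis 5 of the 6 xylem markers were higher outside, and without columella root cap 5 were higher inside. Of the 4 endodermis markers SCR and MYB36 were higher in all inner libraries, and of the 4 stele markers SHR and AHP6.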

How the data were processed

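Poly(A) RNA of sorted root cells was sequenced in 6 libraries of 5 cell types, with groups taken from the labelled cell types. The values deposited by the authors are FPKM, 1 file per library with 33554 loci. The submitters' processing notes name Cufflinks 2.0.2, TopHat 1.3.1, Bowtie 0.12.7 and the build TAIR10, with no roles. Read numbers, annotation, strandedness and the handling of multiply mapped reads are not stated in these sources. Absolute depth per library is therefore unknown, no counting interval is given, and values of overlapping genes and close copies are uncertain. The most common ratio of low values to those of endodermis line 1 was 1.6 in cortex, 1.25 in columella root cap and 1.2 in endodermis line 2. It was 1.06 in epidermis and 0.99 in stele. If such values are 1 read each, a higher ratio means a lower depth. The labels name no batch or day, and do not say whether the 2 endodermis lines were grown separately, so spread between libraries may be technical.

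Values were compared as log2(FPKM + 1), which understates differences of low genes, for the 19671 loci at 1 FPKM or more in at least 1 library. limma 3.58.1 (R 4.3.3; eBayes with trend, 4 residual degrees of freedom) compared 2 outer with 4 inner libraries, with Benjamini-Hochberg adjustment over all measured genes. Calls needed an adjusted p under 0.05 and a fitted difference of at least 1 on the log2 scale, in either direction. The computations were tested on simulated data. Names and products came from RefSeq TAIR10.1, which matched 32807 loci. Because the submitters name TAIR10, coordinates are left out, and upstream windows of 250 bases were taken by locus identifier from RefSeq's own annotation.

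The gene set compared, the lists and the rules were chosen with earlier results of these data known, and 9 lists after their members' values were seen. Each list is described by its counts and median, not by a test, and nothing particular to a list is drawn from them. Named genes were the 15 largest gaps in each direction, up to 6 non-overlapping members per list, the markers, the genes nearest the gap of 1 and the most equal outer pairs. Other list members are examples chosen after their values were seen. Alternatives changed the scaling (size factors, TPM), the filter, the pseudocount (0.1), the endodermis lines (averaged), the limma model and each library in turn. Counts per list under other scalings and without a library were added after seeing the data. Python 3.11, pandas 2.3.3 and matplotlib 3.10.9 were used. Some genes and sequences are not reported here.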

Additional observations from a re-analysis of the deposited data

How the results depend on the processing

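With each library left out in turn, the genes higher outside numbered 2384 to 5497 and those higher inside 2797 to 7590, the rule of size gave 486 to 1595 and 144 to 587, and limma called 0 to 841 and 0 to 113. All 482 and 122 genes of the rule of size remained in each of these settings, by construction, and 469 and 95 did with size factors. Averaging the endodermis lines gave 5657 genes higher inside, 364 by the rule of size, and 0 and 0 limma calls. limma called 0 and 0 with a pseudocount of 0.1, 34 outside and 1 inside with no filter, 9 inside with size factors, and 1627 and 326 with cell type as the term, where 1 residual degree of freedom remained and the spread was that of the endodermis pair. No filter, TPM, stricter filters and no trend kept the other counts within 1.5 times. No paired analysis was possible because only endodermis has 2 libraries.

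Some outer minus inner differences turned sign, on the log2 scale. Without each library in turn, list medians lay between -0.093 and 0.40 for UDP-glycosyltransferases (-0.004 with no filter), -2.17 and 3.01 for xylem markers (-0.14 with the lines averaged), -0.095 and 1.1 for cell separation, -0.46 and 0.67 for meristem regulators, -0.83 and 0.44 for RNA-directed DNA methylation, -0.51 and 3.34 for epidermis markers, -0.026 and 0.47 for lectin and wall-associated kinases, -0.14 and 1.33 for cysteine-rich kinases, -0.013 and 0.70 for pectin methylesterases and inhibitors, -0.72 and 0.12 for peroxidases, -0.45 and 1.27 for auxin transport and -0.25 and 0.17 for ABC transporters. The cutin median was 0.14 with a filter on the mean. For single genes they lay between -2.85 and 3.32 for XCP2 (-0.19 with the lines averaged), -2.91 and 3.42 for XCP1 (-0.21), -2.28 and 2.70 for CESA7 (-0.089, and -0.10 with a pseudocount of 0.1), -0.94 and 6.14 for EXPA7, -0.51 and 3.34 for RHD6, -1.78 and 1.47 for VND7, -0.001 and 2.96 for GL2, -0.75 and 3.05 for MYB23, -2.05 and 3.14 for CESA8, -1.28 and 0.21 for WOL and -0.55 and 2.88 for CESA4. The cause was not tested. Read depth, of which only a relative estimate could be made, limits low values.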

Other observations

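Further gene groups, chosen after their values were seen, are given as values. Over all measured genes, 11.9% were higher outside and 13.4% inside. Of 16 measured jacalin-type lectins, sugar-binding proteins, 9 (56.2%) were higher in both outer libraries and none in all inner ones. JAL33 was at 141 FPKM in epidermis and 138 in columella root cap, and at 16.7, 12.4, 5.14 and 1.08 in cortex, endodermis lines 1 and 2 and stele. Of 14 GH3 genes, whose family conjugates auxin and other acids to amino acids, 5 (35.7%) were higher outside. GH3.17 was at 55.6 and 46.5 FPKM outside and 18.1, 10.5, 2.07 and 0.396 inside, in the same order of libraries. Of 19 Dof transcription factors, 9 (47.4%) were higher inside and 2 (10.5%) outside, the latter near the share of all genes. Among the outer ones AT1G21340, was at 17.9 FPKM in epidermis and 250.1 in columella root cap, and at most 0.955 inside. Of 24 genes matched by name to the 20S proteasome core, 18 (75.0%) were higher inside and 13 with size factors, with small gaps. The match was not checked gene by gene. It also took in AT2G48120, AT4G33520 and AT5G21930, which do not encode core subunits. PAG1 was at 99.1 and 87.8 FPKM outside and 193, 129, 207 and 204 inside.

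Of 6 measured genes of phototropin signalling, a blue light pathway, 4 (66.7%) were higher inside, against 13.4% of all measured genes. PHOT1, the photoreceptor of root phototropism, was at 0.51 FPKM in epidermis and 1.34 in columella root cap, and at 64.9, 8.09, 38.9 and 32.6 in the inner libraries. Its partners NPH3 and RPT2 were at 2.63 and 4.995 and at 23.2 and 19.5 FPKM outside, and at 16.4 to 50.7 and 83.9 to 303 inside. PHOT2, the second photoreceptor, overlapped between the sides, at 1.05 and 2.50 FPKM outside and 1.98 to 2.83 inside. limma called none of the 6, and 4 had an unadjusted p under 0.05.

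A few hormone enzyme genes, picked after their values were seen and not from a list, are given as values. CYP72C1 and BAS1, P450 genes of brassinosteroid inactivation, were at 176 and 81.3 and at 26.2 and 21.0 FPKM outside, and at most 8.84 and 4.78 inside. BR6OX2, a late enzyme of synthesis, was at 1.16 and 1.54 FPKM outside and 8.32, 75.3, 55.5 and 14.8 inside. DWF4, an earlier enzyme, was at 4.04 and 3.52 FPKM outside and 6.95, 37.6, 10.9 and 19.5 inside. CKX4, which degrades cytokinin, was at 15.2 and 75.4 FPKM outside and at most 0.447 inside. None of the brassinosteroid genes named here was called by limma, and CKX4 was (adjusted p = 0.026).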
